A study of Mus musculus with 6 samples.

Results

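The epidermal growth factor (EGF) receptor family and its ligands were followed in mouse jejunal organoids exposed to conditioned media (CM). The members were 9 named genes, looked up by Ensembl identifier among the 31319 genes of the count matrices. They were the receptors Egfr, Erbb2 and Erbb3, the receptor inhibitor Errfi1, and the ligands Areg, Ereg, Egf, Tgfa and Nrg1, and all 9 were found. EGF receptors are tyrosine kinases of the cell surface that pair up after a ligand binds and then signal through the Ras and MAP kinase pathway. Egfr binds Egf, Tgfa, Areg (amphiregulin) and Ereg (epiregulin), Erbb3 binds neuregulins such as Nrg1 but has little kinase activity of its own, and Erbb2 has no known ligand and serves as a partner of the others. In the intestine, EGF signals are known to sustain proliferation of the crypt, and ligands of the family are made both by the epithelium and by the surrounding stroma.

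Organoids are epithelial cultures grown from intestinal crypts in a gel. Crypts came from the jejunum of C57BL/6 mice aged 8 to 12 weeks, and freshly passaged organoids received organoid growth medium mixed with concentrated CM of mouse embryonic fibroblasts. CM of fibroblasts made quiescent by low serum is called QCM and that of senescent fibroblasts SCM. There were 3 samples of each medium, numbered as replicates 1, 2 and 3. Per the methods of the study, senescence was induced by X-rays or by doxorubicin, and which of these was used for the sequenced samples is not given in the sources used here. Nothing in the labels ties a sample to its own mouse or culture, so the p-values measure the spread between these samples, which may be technical.

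RNA was counted in single nuclei as unique molecular identifiers (UMIs), that is, tagged molecules near the 3′ end of a transcript. The 6 samples held 38154 nuclei and between 4071926 and 41035733 UMIs. SCM replicate 1 was the smallest, with 430 nuclei, while the others had 3791 to 10833. QCM replicate 1 and SCM replicate 1 shared 175 cell barcodes, which is 40.7% of the nuclei of SCM replicate 1 and 40 of which lay in the same cluster in both. The other pairs of samples shared at most 36 barcodes (0.358% of the smaller sample or less). Whether UMIs of one replicate 1 sample were counted in the other was not tested, and estimates with the shared barcodes or these samples left out are given beside the results they move. The log2 ratio of each member, over all nuclei or in a named cluster, is therefore given with all samples and with replicates 2 and 3 alone. The same holds for the 6 other pathway genes with the smallest p. Without SCM replicate 1, the cluster with the highest mean stayed the same for every member but Erbb2. Ribosomal protein genes took 14.1%, 4.86% and 10.2% of the UMIs of the QCM samples, in the order of their numbers, and 4.10%, 2.55% and 7.19% of those of the SCM samples (two-sided exact permutation test, p = 0.2, smallest possible 0.1). Summed markers of fibroblasts came to between 1.75 and 6.12 CPM (UMIs of a gene divided by all UMIs and scaled to 1e+06) over 8 genes, all detected, against 2287 to 3348 CPM for 6 epithelial markers.

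The authors deposited a cluster number from 0 to 14 for every nucleus, with no names. From marker lists, cluster 6 (1755 nuclei) was goblet-like, with 6 of 7 goblet and 3 of 7 Paneth markers raised at least 2-fold over the other nuclei. Cluster 7 (1442 nuclei) was fetal-like (6 of 9 markers, among them Clu, Anxa1 and Ly6a), although its 10 leading genes, with the matrix genes Col4a1, Col4a2 and Fn1 among them, held none of these markers. Cluster 8 (1416 nuclei) was enterocyte-like (7 of 9). Clusters 9 (782 nuclei) and 10 (483 nuclei) were both enteroendocrine-like, with 9 and 6 of 9 markers, and cluster 11 (366 nuclei) was tuft-like (7 of 7). Tph1 and Tac1, genes of serotonin and substance P production, were among the 10 leading genes of cluster 10, and so was Nrg1 itself. The other clusters stay numbered. The clusters were made from these same nuclei and genes, so levels by cluster are descriptions without a test.

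The members lie on 7 mouse chromosomes (GRCm38, GENCODE M21). Egfr (11:16752203-16918158) and Erbb2 (11:98412470-98437716) share chromosome 11 at a distance, Erbb3 is at 10:128567523-128589652 and Errfi1 at 4:150853919-150868892. Among the ligands, Egf lies at 3:129677565-129755316, Tgfa at 6:86195223-86275719 and Nrg1, the longest at 1069 kb, at 8:31814551-32884029. Ereg (5:91074622-91093646) and Areg (5:91139599-91148432) are neighbours, 45.95 kb apart, in a run of ligand genes that starts with Epgn and ends with Btc and spans 375.5 kb. Annotated genes that overlap a member on its own strand had 0 UMIs.

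Promoter windows of 250 bases before a RefSeq start (GRCm38.p6) were searched on both strands for the core motif of TEAD factors (GGAATG), the AP-1 motif (TGANTCA) and the cyclic AMP response element, CRE (TGACGTCA). The CRE was added after the sequences had been seen. These motifs occurred in 12.6%, 6.75% and 1.55% of 32851 promoters of this length. Of the 8 windows that matched Egf, Errfi1, Areg, Tgfa, Egfr or Erbb2, the Areg window and that of the downstream Errfi1 start held a CRE, 61 and 51 bases before the start, and the upstream Errfi1 start and Erbb2 each held a TEAD core. Ereg, Erbb3 and Nrg1 were not analysed here in this respect. The windows of Areg, the ligand concentrated in clusters 7, 8 and 5, and of Errfi1 are printed with the CRE in capitals, and that of Egfr, which held none of the 3 motifs, is printed for comparison. All are on the plus strand, read 5′ to 3′.
Areg, chr5:91139349-91139598: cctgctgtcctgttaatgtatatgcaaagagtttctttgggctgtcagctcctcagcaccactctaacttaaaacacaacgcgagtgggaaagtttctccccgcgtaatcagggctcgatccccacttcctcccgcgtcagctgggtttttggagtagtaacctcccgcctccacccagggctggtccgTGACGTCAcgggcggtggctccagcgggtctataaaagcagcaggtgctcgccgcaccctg
Errfi1 (downstream start), chr4:150854820-150855069: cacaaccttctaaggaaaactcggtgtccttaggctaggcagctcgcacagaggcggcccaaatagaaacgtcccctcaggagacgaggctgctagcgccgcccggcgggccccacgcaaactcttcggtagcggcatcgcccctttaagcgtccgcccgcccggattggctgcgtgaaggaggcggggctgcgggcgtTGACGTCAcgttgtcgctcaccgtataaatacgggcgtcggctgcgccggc
Egfr, chr11:16751953-16752202: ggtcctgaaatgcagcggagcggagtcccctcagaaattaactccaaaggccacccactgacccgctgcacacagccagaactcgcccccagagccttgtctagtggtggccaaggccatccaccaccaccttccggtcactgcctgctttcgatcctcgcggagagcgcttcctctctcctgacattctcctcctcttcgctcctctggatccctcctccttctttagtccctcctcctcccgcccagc
A match is a run of letters and not a measured binding site.

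Levels over clusters are given as CPM of the UMIs summed per sample and cluster, averaged over those samples that held at least 10 of its nuclei. The receptors Erbb2 and Erbb3 and the ligand Tgfa were even over the epithelium. The highest mean of Erbb2 was 1.24 times its median over the 15 clusters, that of Tgfa 1.29 times and that of Erbb3 1.34 times. Nrg1 stood at the other end, with a highest mean 69.8 times its median. Areg and Ereg (4.29 and 5.96 times) and Egfr and Egf (2.01 and 2.17 times) lay between.

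**Figure D1:**
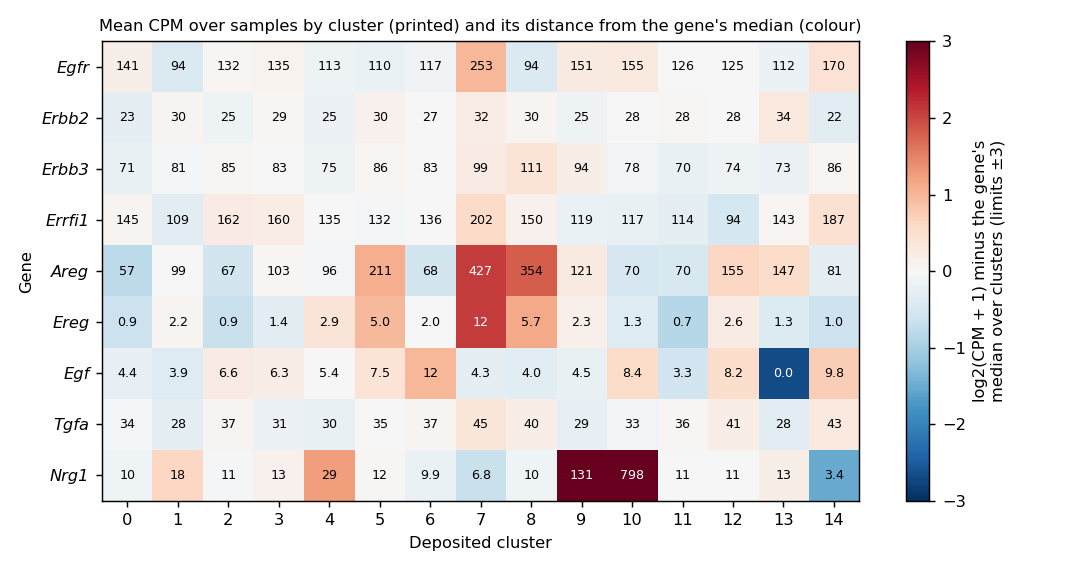
Mean CPM over samples of each member (rows) in each deposited cluster (columns) is printed in the cell. Colour gives log2(CPM + 1) minus the gene's median over clusters. Nrg1 reaches 798 CPM in cluster 10 and 131 CPM in cluster 9, and Areg 427 CPM in cluster 7 and 354 CPM in cluster 8, while the rows of Erbb2, Erbb3 and Tgfa are pale throughout.

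Egfr was measured in every cluster, at means from 93.5 ± 39.9 CPM (SD, n = 6) in cluster 1 to 253 ± 125 CPM (n = 6) in the fetal-like cluster 7. In cluster 7 it was 104.0, 315.8 and 190.7 CPM in the QCM samples (replicates 1, 2 and 3) and 182.2, 458.7 and 264.5 CPM in those of SCM. Cluster 7 was the highest cluster for Egfr in 5 of the 6 samples. Its mean nevertheless differed from the next, 170.0 ± 42.0 CPM (n = 3) in cluster 14, by less than the larger SD. None of the 14 neighbouring pairs in the order of clusters differed by more than that.

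Erbb3, the neuregulin receptor, was highest in the enterocyte-like cluster 8 at 111 ± 34.1 CPM (SD, n = 6), followed by cluster 7 at 99.0 ± 17.4 CPM. In cluster 8 it ranged from 71.6 CPM in QCM replicate 2 to 149.9 CPM in QCM replicate 1, so its replicates spread as widely as its clusters. Erbb2 had means of 21.9 to 34.4 CPM. The cluster at its top changed from 13 to 7 when UMIs were pooled over samples or SCM replicate 1 was left out, and its neighbours in the order did not differ beyond their SD.

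Errfi1 encodes Mig6, a cytoplasmic protein that binds and inhibits the active receptor and is itself induced by receptor signalling. It was highest in cluster 7 at 202 ± 54.0 CPM (SD, n = 6), with 180.9, 268.0 and 122.3 CPM in the QCM and 227.8, 244.2 and 170.9 CPM in the SCM replicates. It was lowest in cluster 12 at 94.4 ± 33.4 CPM (n = 5). Cluster 7 was the highest for Errfi1 in 3 of the 6 samples. None of the 14 neighbouring pairs in its order of clusters differed by more than the larger SD. With pooled UMIs its highest cluster was cluster 14, a cluster of 92 nuclei with a median of 39433 UMIs per nucleus against 2139 over all nuclei.

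Areg was concentrated in clusters 7, 8 and 5. It averaged 427 ± 125 CPM (SD, n = 6) in the fetal-like cluster 7, 353.5 ± 124 CPM in the enterocyte-like cluster 8 and 211 ± 80.1 CPM in the unnamed cluster 5. The mean of cluster 8 exceeded that of cluster 5 by more than the larger SD, and this was the only such step in the order. Clusters 5, 7 and 8 held 45.5% of all Areg UMIs, beside 17.0% of all UMIs and 13.4% of the nuclei. At the bottom was cluster 0, the largest with 11711 nuclei, at 56.9 ± 25.1 CPM (n = 6).

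The order of those 3 clusters depended on a few deeply sequenced nuclei. In cluster 7, 214 of 1442 nuclei (14.8%) were among the 6% with the most UMIs in their sample, and they held 59.3% of the cluster's UMIs. Areg was 627.7 CPM in these nuclei and 181.6 CPM in the other nuclei of the cluster. The 9 fetal markers summed to 2558 CPM in the former and 314.4 CPM in the latter. Without the deepest 6% of each sample, pooled Areg was 349 CPM in cluster 8, 245 CPM in cluster 5 and 182 CPM in cluster 7.

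Shares of nuclei pooled over samples were in the same order. After thinning each nucleus to 1000 UMIs, which left out 3179 of 38154 nuclei, an Areg UMI was found in 24.5% of nuclei in cluster 8, 19.7% in cluster 5 and 18.6% in cluster 7, against 6.01% in cluster 0. Cluster 8 had the highest share of the 3 in every sample but SCM replicate 1, which had 11 such nuclei, while clusters 5 and 7 changed places between samples. Unthinned, these shares were 47.7%, 38.8%, 36.5% and 13.1%, at median depths of 2367, 2360, 2377 and 2111 UMIs. These unthinned shares move with depth, and in QCM replicate 1, the deepest sample, Areg had a UMI in 92.5% of the nuclei of cluster 8.

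Egfr had the same split in cluster 7 in 6 of 6 samples. Pooled over samples it was 420.2 CPM in the deepest nuclei, where 1456 of 2138 UMIs came from SCM replicate 2, and 150.9 CPM in the others. Without their own deepest nuclei, clusters 10 and 0 had 144.9 and 144.1 CPM, but samples weigh unequally in these pools. By sample, the others in cluster 7 had 74.4, 178.9 and 107.4 CPM in QCM and 146.7, 286.3 and 188.2 CPM in SCM. All nuclei of cluster 0 had 78.9, 163.1 and 109.8 CPM in QCM and 170.6, 181.4 and 144.0 CPM in SCM. Ereg was 19.7 CPM in the deepest nuclei and 5.74 CPM in the others when pooled, which is 100 and 20 UMIs, but 69 of the 100 came from SCM replicate 2. It was higher in the deepest nuclei in 4 of 6 samples, lower in SCM replicate 3 (6.19 against 10.1 CPM) and without a UMI in SCM replicate 1. The summed level of the fetal markers was also higher in the deepest nuclei, and its part in these levels was not tested. Doublets, droplets that hold more than 1 nucleus, also have many UMIs, and their part was not tested.

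Ereg was the scarcest of the 9 members, with 363 UMIs in 279 nuclei of all samples. Its means ran from 0.67 ± 1.50 CPM (SD, n = 5) in cluster 11 to 12.0 ± 10.8 CPM (n = 6) in cluster 7. In cluster 7 it was 4.16, 29.0 and 10.5 CPM in QCM and 0, 20.3 and 8.00 CPM in SCM, so the SD was nearly as large as the mean. SCM replicate 1 had a single Ereg UMI in all its nuclei. Clusters 5, 7 and 8 held 55.1% of the Ereg UMIs. By sample this was 32.5%, 62.9% and 28.1% in QCM and 0%, 72.2% and 57.5% in SCM. Without the deepest 6% of each sample, pooled Ereg was 5.82 CPM in cluster 5, 5.74 CPM in cluster 7 and 4.66 CPM in cluster 8. Clusters 13 and 9 followed at 4.58 and 4.53 CPM, from 2 and 7 UMIs. Across the 15 clusters the log2 levels of Ereg and its neighbour Areg had a Pearson r of 0.89, the highest of the 36 pairs of members. That is a description, since the clusters share libraries and depth.

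Egf, the ligand that names the family, was low throughout, with 732 UMIs in 665 nuclei. Its highest mean was in the goblet-like cluster 6 at 11.8 ± 3.31 CPM (SD, n = 6), with 8.74, 16.9 and 8.03 CPM in the QCM and 13.4, 12.9 and 10.7 CPM in the SCM replicates. These values rest on 4 to 28 UMIs per sample. Cluster 6 was the highest cluster for Egf in 2 of the 6 samples. Its mean differed from the next, 9.78 ± 1.30 CPM (n = 3) in cluster 14, by less than the larger SD. In cluster 13 no Egf UMI was found in 160 nuclei, which allows a share of up to 1.88% of nuclei with a UMI (counting error only). Tgfa, a second high-affinity ligand of Egfr, had means of 27.5 to 45.3 CPM, with cluster 7 at the top (45.3 ± 14.6 CPM, n = 6), and none of the 14 neighbouring pairs in its order differed by more than the larger SD. In cluster 7, pooled Tgfa was 65.8 CPM in the deepest nuclei and 30.4 CPM in the others (higher in 5 of 6 samples), and without the deepest 6% of each sample cluster 7 ranked 7 of 15 for Tgfa.

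**Figure D2:**
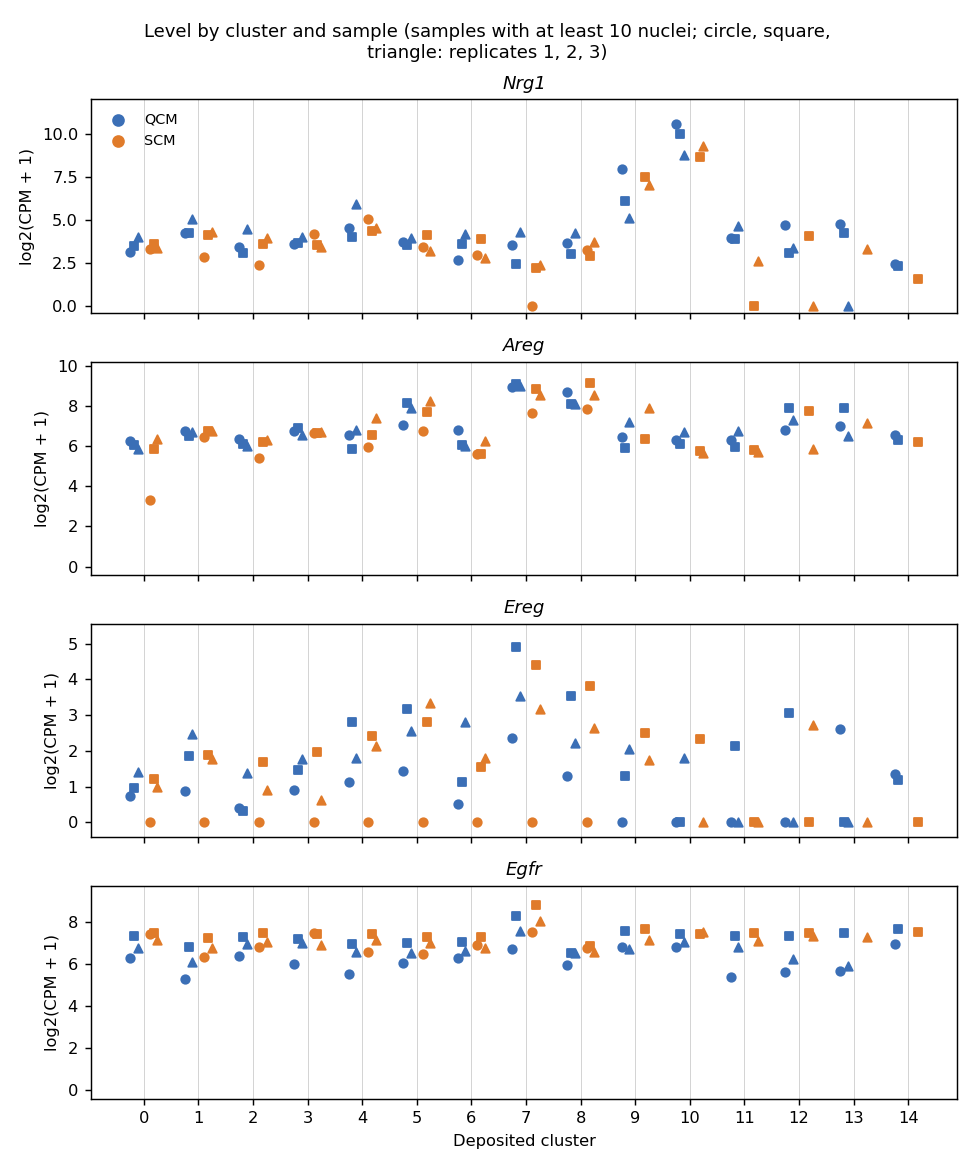
Level of Nrg1, Areg, Ereg and Egfr in each sample and deposited cluster, as log2(CPM + 1), where a sample held at least 10 of its nuclei (blue QCM, orange SCM, marker shape by replicate). Every sample has its highest Nrg1 in cluster 10, apart from SCM replicate 1, which has 4 nuclei there and is not shown in that column, and QCM and SCM points overlap in most columns.

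Nrg1 peaked in the enteroendocrine-like clusters. In cluster 10 it was 1521, 1021 and 435 CPM in QCM replicates 1, 2 and 3 and 392 and 619 CPM in SCM replicates 2 and 3, for a mean of 798 ± 474 CPM (SD, n = 5). It was highest there in all 5 samples. Cluster 9 followed at 131 ± 86.1 CPM (n = 5), and both steps, to cluster 9 and then to cluster 4 (28.5 ± 16.5 CPM, n = 6), were larger than the larger SD. The second step rests on 1 nucleus of QCM replicate 1 with 172 UMIs: without it cluster 9 averaged 85.9 ± 65.4 CPM (n = 5), and the distance to cluster 4 was below the larger SD. Without the deepest 6% of each sample, pooled Nrg1 was 653 CPM in cluster 10, 47.3 CPM in cluster 9 (122.6 CPM with them) and 35.9 CPM in cluster 4. Clusters 9 and 10 held 3.32% of the nuclei and 47.3% of the 3310 Nrg1 UMIs. In the other clusters the means were 3.36 to 28.5 CPM.

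Within those clusters, Nrg1 sat in very few nuclei. Only 35 of 38154 nuclei had 10 or more Nrg1 UMIs, all 35 in cluster 9 or 10, and they held 39.9% of all Nrg1 UMIs. In cluster 10, 27 of 483 nuclei held 969 of 1114 UMIs, the richest with 117. In cluster 9, 8 of 782 nuclei held 353 of 452 UMIs, of which 172 were in a single nucleus of QCM replicate 1. Elsewhere no nucleus had more than 5, and 90.8% of all nuclei with Nrg1 had exactly 1 UMI. After thinning, and with nuclei pooled over samples, a UMI of Nrg1 was found in 10.9% of the nuclei of cluster 10, 3.83% in cluster 4, 3.23% in cluster 9 and 1.15% in cluster 0, at median depths before thinning of 1903, 1572, 2157 and 2111 UMIs. The pooled order of clusters 4 and 9 rests on QCM replicate 3, which supplied 741 of the 1643 thinned nuclei of cluster 4. The share was 2.05% in cluster 9 and 5.80% in cluster 4 of that sample, and 0 of 3 nuclei and 5.51% in SCM replicate 1. It was higher in cluster 9 than in cluster 4 in the other 4 samples (6.98% and 2.04% in QCM replicate 1, 3.60% and 0.79% in QCM replicate 2, 3.77% and 1.96% in SCM replicate 2, 3.91% and 1.59% in SCM replicate 3).

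The Nrg1-rich nuclei were described by enteroendocrine markers, a comparison chosen after these values were seen. In cluster 10, 26 of the 27 had a UMI of Tph1, the rate-limiting enzyme of peripheral serotonin synthesis, against 55 of the other 456 nuclei. Their median depth was 5271 UMIs against 1849. Tph1 was 325 CPM in the Nrg1-rich nuclei and 76.9 CPM in the rest, and the granule genes Chga and Chgb were 545 against 143 CPM and 1244 against 367 CPM. The hormone gene Cck went the other way in this cluster, at 31.5 CPM in the rich nuclei and 64.2 CPM in the rest. In cluster 9, where the 8 rich nuclei had a median of 19043 UMIs, Tph1 was 124 CPM in them and 4.82 CPM in the others, and all 9 markers were higher in them, Cck included (871 against 510.0 CPM).

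**Figure D3:**
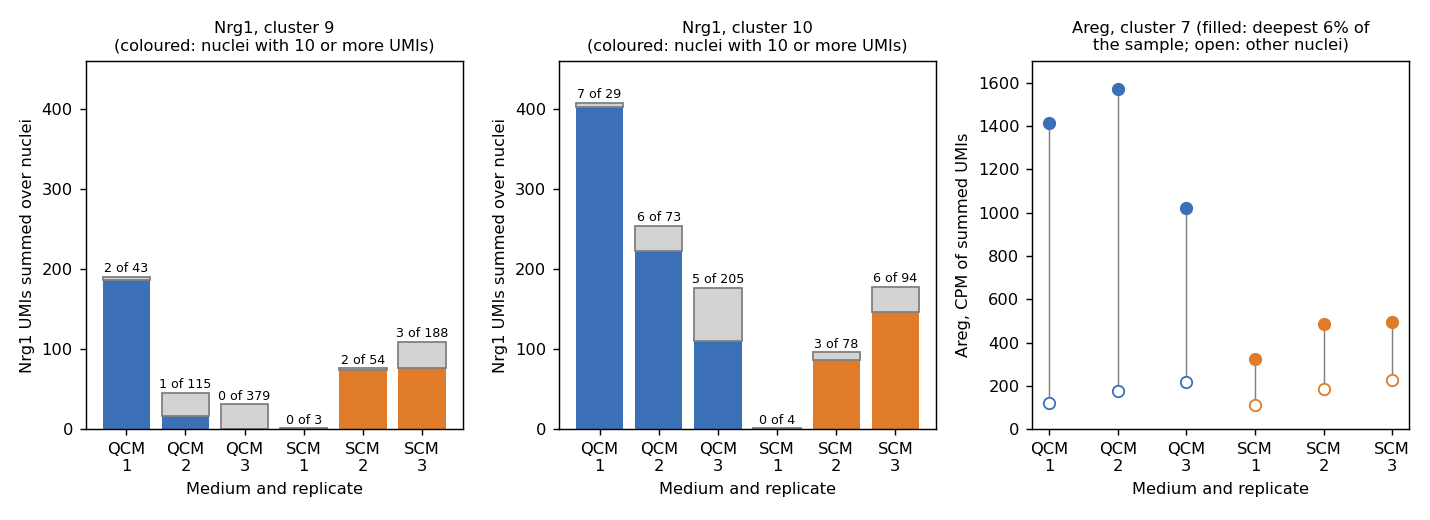
Left and middle, Nrg1 UMIs of each sample in clusters 9 and 10, split into nuclei with 10 or more (coloured, their number of all nuclei above the bar) and the rest (grey). Right, Areg in cluster 7 as CPM in the deepest 6% of nuclei of each sample (filled) and in the other nuclei (open), where the filled points of QCM lie at 1022 CPM or more and those of SCM at 497 CPM or less.

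The genes whose levels over the 15 clusters were most like those of Nrg1, among 12134 genes with a mean of at least 5 CPM, were Rab3c (r = 0.96), a small GTPase of secretory vesicles, Tac1 (0.96), the precursor of substance P, and Chga (0.95), a protein of hormone granules. For Areg they were Mpp1, Cyp3a13 and Sulf2 (r = 0.91 to 0.92), and for Ereg Rnh1, Ahnak and Creb5. Egfr was most like Plekhg3, Fmnl2 and Stn1, Erbb2 like Mapre1, Vat1 and Ppp1r15b, and Erbb3 like Arhgef5, Spag9 and Epb41l4a. Errfi1 was nearest to Ywhag, Ranbp9 and Alcam, Tgfa to Ptpn3, Cab39 and Cipc, and Egf to Cd244a, Gm13421 and Zfp110. These are descriptions over 15 clusters of the same libraries, given with no p. The members themselves were not held to the 5 CPM. The medians of Ereg and Egf over clusters were 2.01 and 5.42 CPM, so their likenesses rest on few UMIs.

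The comparison of the media asked how secreted factors of senescent fibroblasts change the organoids. UMIs of all nuclei were summed per sample and fitted with the edgeR quasi-likelihood test over 19046 genes. With Benjamini-Hochberg adjustment no gene was called at an adjusted p under 0.05 (0%), and so no member. DESeq2 called 21 genes, none of them a member. Without adjustment, 866 genes (4.55%) and 1 of 9 members had a p under 0.05. In bulk sums, fewer cells of a type and less RNA per cell cannot be told apart.

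**Figure D4:**
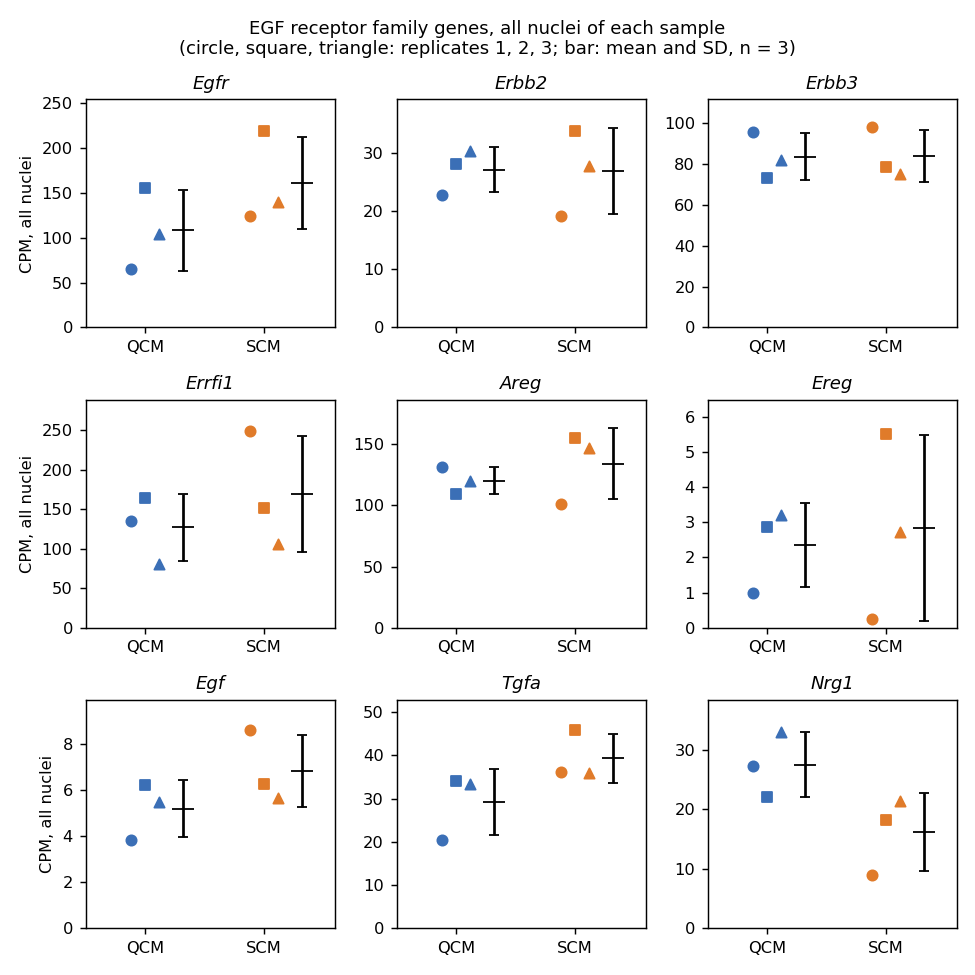
CPM over all nuclei for each member, with the QCM samples in blue, the SCM samples in orange, marker shape by replicate, and the mean ± SD (n = 3) beside them. Tgfa and Nrg1 have ranges that do not overlap between the media, in opposite directions, and the other 7 overlap.

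Among the receptors, Egfr was 65.1, 155.8 and 104.0 CPM in QCM replicates 1, 2 and 3 and 124.5, 219.2 and 139.8 CPM in SCM. The ranges of the media overlapped. On the log2 scale, SCM over QCM was 0.45 ± 0.30 (SE), with a 95% interval of -0.23 to 1.14 and an edgeR adjusted p of 0.929. When the share of ribosomal protein UMIs was added as a covariate, it became -0.01, in replicates 2 and 3 alone it was 0.43, and without QCM replicate 2 it was 0.72. The ribosomal share averaged 9.72% in QCM and 4.61% in SCM. Here and below, what this covariate takes up and what goes with the medium cannot be fully told apart. The 9 fetal markers, which went with Egfr in cluster 7, summed to 79.5 to 123 CPM in QCM and 198 to 703 CPM in SCM, and their part in the estimate was not tested. Erbb2 was 22.8, 28.0 and 30.4 CPM in QCM and 19.2, 33.7 and 27.7 CPM in SCM, and Erbb3 95.8, 72.9 and 81.8 CPM against 98.2, 78.6 and 74.9 CPM. Their log2 ratios were -0.15 (95% interval -0.69 to 0.39) and -0.19 (95% interval -0.70 to 0.33). In replicates 2 and 3 alone the estimates were 0.03 for Erbb2 and -0.06 for Erbb3.

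The inhibitor Errfi1 was 135.6, 164.7 and 81.2 CPM in QCM and 249.5, 151.9 and 106.6 CPM in SCM. The highest value was that of SCM replicate 1, and the log2 ratio of 0.23 (95% interval -0.59 to 1.05) became -0.13 without that sample and 0.04 in replicates 2 and 3 alone.

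Among the ligands, Tgfa was 20.5, 34.1 and 33.4 CPM in QCM and 36.1, 45.9 and 36.0 CPM in SCM. All SCM samples were above all QCM samples, as in 4.99% of the genes tested. The log2 ratio was 0.29 ± 0.19 (SE; edgeR adjusted p = 0.929) and 0.09 with the ribosomal share as a covariate, and it was 0.23 in replicates 2 and 3 alone. Areg was 131.8, 109.7 and 119.7 CPM against 100.9, 154.9 and 147.1 CPM, with a log2 ratio of -0.02 (95% interval -0.59 to 0.55) that was 0.35 in replicates 2 and 3 alone. Ereg (0.97, 2.88 and 3.21 against 0.25, 5.53 and 2.72 CPM) and Egf (3.80, 6.22 and 5.47 against 8.60, 6.25 and 5.63 CPM) overlapped as well, with estimates of 0.26 and 0.24 that were 0.38 and -0.02 in replicates 2 and 3 alone.

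Nrg1 was the member with the smallest p. It was 27.4, 22.1 and 33.1 CPM in QCM replicates 1, 2 and 3 and 8.84, 18.2 and 21.4 CPM in SCM. All SCM samples were below all QCM samples, as in 2.09% of the genes tested. The log2 ratio was -0.90 ± 0.35 (SE), with an unadjusted p of 0.0344 and an edgeR adjusted p of 0.927. Without SCM replicate 1 it was -0.62 (unadjusted p = 0.0576), in replicates 2 and 3 alone -0.52, with the shared barcodes left out -0.78, and with the ribosomal share as a covariate -0.47.

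Enteroendocrine markers were measured beside Nrg1. Nuclei of clusters 9 and 10 together were 1.90%, 2.37% and 5.76% of the QCM samples and 1.63%, 2.63% and 2.60% of the SCM samples. The 9 enteroendocrine markers, all detected, summed to 180 to 342 CPM in QCM and 54.8 to 200 CPM in SCM. Without clusters 9 and 10, Nrg1 was 13.2, 10.2 and 24.3 CPM in QCM and 8.42, 10.3 and 11.2 CPM in SCM, so that the ranges overlapped, and the log2 ratio was -0.82 (unadjusted p = 0.0502). With clusters 0 to 8 weighted equally in every sample, it was -0.33. This last value came from a limma fit to log2(mean CPM + 1) without TMM, so it differs from the edgeR ratios in method as well.

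Within clusters, 13 of the 15 could be fitted, with 130109 tests of a gene in a cluster. None was called at an adjusted p under 0.05 (0%; DESeq2 called 8, none of a member), and 7490 (5.76%) had an unadjusted p under 0.05. Of 88 tests of a member, 2 did, and both were Areg. Ranges did not overlap between media for 5 member tests with SCM higher (5.68%, against 7.54% of all tests) and 4 with SCM lower (4.55%, against 4.65%).

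**Figure D5:**
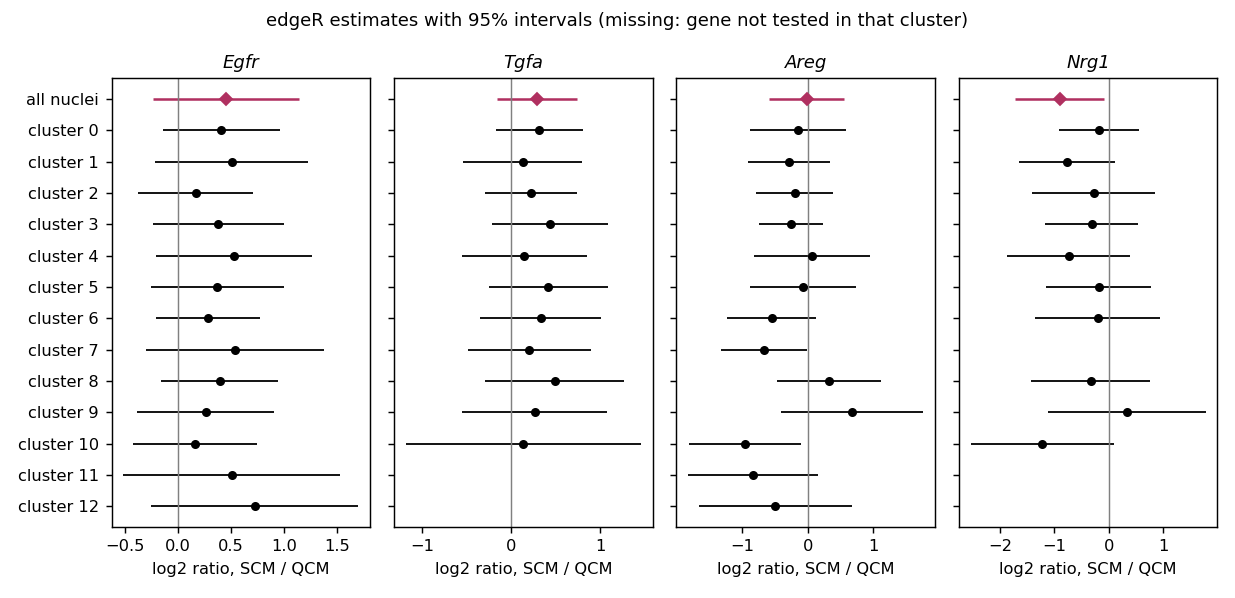
Log2 ratio of SCM to QCM from edgeR with 95% intervals for Egfr, Tgfa, Areg and Nrg1, over all nuclei (diamonds) and in each fitted cluster (circles). Egfr and Tgfa lie above 0 in every cluster tested, with intervals that include 0, and the only intervals that leave out 0 are those of Areg in clusters 7 and 10 and of Nrg1 over all nuclei.

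Areg, close to even over all nuclei, had estimates below 0 in 10 of 13 clusters, where 49.3% of all tests lay above 0. The clusters come from the same samples, so this count is not independent. Of those 10, SCM replicate 1 had the lowest CPM of all samples in clusters 0, 1, 2, 5, 6 and 7, from 15 to 86 nuclei each. In cluster 3 it did not, and in clusters 10, 11 and 12 it was not fitted. Over all nuclei in replicates 2 and 3 alone, Areg had a log2 ratio of 0.35. In cluster 10 it was 78.3, 68.4 and 103.3 CPM in QCM and 53.1 and 48.7 CPM in SCM replicates 2 and 3, a log2 ratio of -0.95 ± 0.38 (SE; unadjusted p = 0.0327, edgeR adjusted p = 0.813). These values are 21, 17 and 42 UMIs in QCM and 13 and 14 UMIs in SCM, and the ranges did not overlap, as in 8.16% of the genes tested there. In replicates 2 and 3 alone the ratio was -0.94. In cluster 7, named because its level was highest there, it was 488.0, 544.7 and 501.1 CPM in QCM and 201.8, 454.0 and 371.9 CPM in SCM (log2 ratio -0.67 ± 0.30, unadjusted p = 0.0476, edgeR adjusted p = 0.813). The ranges did not overlap here either, as in 6.16% of the genes tested. Without SCM replicate 1 this estimate was -0.45, in replicates 2 and 3 alone it was -0.42, and without the 6% of nuclei with the most UMIs it was -0.05.

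In the deepest nuclei of cluster 7, Areg was 1414, 1568 and 1022 CPM in QCM, from 6, 12 and 33 nuclei, and 323.0, 486.1 and 497.1 CPM in SCM, from 2, 83 and 78 nuclei. In the other nuclei it was 122.7, 178.9 and 218.9 CPM in QCM and 112.8, 188.2 and 229.4 CPM in SCM. This split was made after the values were seen and has no test. The deepest nuclei were unlike in depth between samples, with medians of 67539, 10627 and 5587 UMIs in QCM and 32508.5, 26076 and 9160 UMIs in SCM. A single nucleus held 416 of the 3827 Areg UMIs of cluster 7, and its part in these values was not tested. The deepest nuclei were 4.14% to 9.82% of cluster 7 in QCM and 11.8% to 40.7% in SCM, and their fetal markers summed to 1520 to 3450 CPM in QCM and 1306 to 3135 CPM in SCM.

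Egfr had estimates above 0 in 13 of 13 clusters, from 0.16 to 0.73, and Tgfa in 11 of 11, from 0.13 to 0.49, where 49.3% of all tests lay above 0. The clusters come from the same 6 samples, so these counts are not independent. The smallest p of Egfr was in cluster 0 (log2 ratio 0.41 ± 0.25 SE, edgeR adjusted p = 0.816), with 78.9, 163.1 and 109.8 CPM in QCM and 170.6, 181.4 and 144.0 CPM in SCM. This ratio was 0.24 in replicates 2 and 3 alone, 0.0147 with the ribosomal share as a covariate and 0.691 without QCM replicate 2. In cluster 7, chosen because its level was highest there, the ratio was 0.54 ± 0.38 (SE), 0.45 in replicates 2 and 3 alone, -0.13 with the ribosomal share as a covariate, 0.108 without SCM replicate 2 and 0.915 without QCM replicate 2. The smallest p of Tgfa was in cluster 3 (0.43 ± 0.29 SE, edgeR adjusted p = 0.826), with 18.6, 27.1 and 29.6 CPM against 34.5, 44.9 and 30.7 CPM, ranges that did not overlap, as in 7.43% of the genes tested there, and a ratio of 0.36 in replicates 2 and 3 alone.

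Nrg1 had its smallest p in cluster 10, with a log2 ratio of -1.22 ± 0.59 (SE; edgeR adjusted p = 0.813). The nuclei with 10 or more Nrg1 UMIs numbered 7 of 29, 6 of 73 and 5 of 205 in QCM and 0 of 4, 3 of 78 and 6 of 94 in SCM. These counts were not adjusted for depth, and the median UMIs per nucleus in cluster 10 were 8429, 2099 and 1621 in QCM and 3365.5, 2492.5 and 1761.5 in SCM. Without QCM replicate 1, or with replicates 2 and 3 alone, the estimate was -0.60. In cluster 9, named here after its values were seen, the ratio was 0.34 ± 0.64 (SE). Leaving out 1 sample at a time moved it from -0.10 without QCM replicate 3 to 1.58 without QCM replicate 1, the sample of the nucleus with 172 UMIs. That last fit is also the one with replicates 2 and 3 alone, since SCM replicate 1 had 3 nuclei there and was not fitted. With the shared barcodes left out the ratio was 1.81. None of these was called. A fit with a replicate block, which rests on replicates 2 and 3, did call it (edgeR adjusted p = 1.9e-07). Each block held at most 1 sample of each medium, so little was left to measure spread. The SCM side of these ratios also rests on few nuclei. In SCM replicate 2, 2 of 54 nuclei held 74 of 76 Nrg1 UMIs of cluster 9. In SCM replicate 3, 3 of 188 held 77 of 109.

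The remaining members had no test under 0.05. Erbb3 was below 0 in 12 of 13 clusters, which share their samples, where 49.3% of all tests lay above 0. Of those 12, mean CPM was lower in SCM in clusters 0, 6, 9, 10, 11 and 12 but higher in clusters 1, 2, 3, 4, 5 and 7. The smallest p of Erbb3 was in cluster 0 (-0.44 ± 0.25 SE), with 98.8, 71.0 and 84.0 CPM in QCM and 35.9, 66.1 and 71.7 CPM in SCM. The ratio was -0.18 in replicates 2 and 3 alone and -0.101 with the ribosomal share as a covariate. Erbb2 was lowest in p in cluster 8 (0.48 ± 0.33 SE), Errfi1 in cluster 12 (-0.47 ± 0.51), Egf in cluster 1 (0.29 ± 0.51) and Ereg in cluster 7 (-0.11 ± 0.68), the only cluster in which Ereg passed the filter. These 4 ratios were 0.44, -0.115, 0.04 and -0.48 in replicates 2 and 3 alone, and that of Ereg was -1.36 with the ribosomal share as a covariate (unadjusted p = 0.0434) and 0.758 without QCM replicate 2. Their edgeR adjusted p-values lay between 0.813 and 0.993.

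The members were set beside 47 other genes of the pathway, of which 46 were tested over all nuclei. None was called by edgeR. An unadjusted p under 0.05 was found for 3 (4.55% of all genes had one), and 33 of 46 had an estimate above 0, where 48.6% of all genes did. The list was chosen with earlier results of these data known, so its counts are descriptions and no test. Its genes also share the same samples, so the counts are not independent. The median log2 ratio was 0.14, against -0.01 over all genes tested. Ranges did not overlap for 8 genes with SCM higher and 0 with SCM lower, against 4.99% and 2.09% of all genes tested. The 8 were Phlda1, Cblb, Etv4, Hbegf, Spred2, Ccnd1, Rhbdf1 and Ier3, and those not among the 6 with the smallest p are named here after their values were seen.

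The 3 genes were Phlda1, a target of receptor signalling that was 39.3 ± 6.85 CPM (SD, n = 3) in QCM and 66.8 ± 6.35 CPM in SCM (log2 ratio 0.57 ± 0.23 SE), Cblb, a ubiquitin ligase that marks receptors for breakdown (101 ± 23.4 and 150 ± 23.3 CPM, 0.42 ± 0.18), and Mapk3, the kinase ERK1 (56.3 ± 9.99 and 41.5 ± 6.48 CPM, -0.62 ± 0.26). Next by p were Etv4, a transcription factor induced by the pathway (0.43 ± 0.22), the kinase Map2k2 (-0.36 ± 0.20) and the GTPase Hras (-0.64 ± 0.37). Their edgeR adjusted p was at least 0.927. In replicates 2 and 3 alone the ratios were 0.81 for Phlda1, 0.34 for Cblb, -0.35 for Mapk3, 0.28 for Etv4, -0.125 for Map2k2 and -0.01 for Hras. Over 18 alternatives each, Phlda1 ran from 0.269 without the deepest nuclei to 0.962 with the ribosomal share as a covariate, Cblb from 0.204 to 0.561, and Etv4 from 0.247 to 0.595. With that covariate Mapk3 was -0.0934, Map2k2 -0.0357 and Hras 0.039.

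By role, the shares to read beside each count are the 48.6% of all genes with an estimate above 0 and the 4.99% whose ranges did not overlap with SCM higher. The limits given for the whole list hold for these counts too. The 8 targets had 6 estimates above 0 and 4 with ranges that did not overlap (Phlda1, Etv4, Ccnd1 and Ier3). Of the 11 inhibitors, 8 were above 0 and 1, Spred2, did not overlap, and of the 14 transducers 9 were above 0 and 0 did not overlap. All 7 genes of ligand and receptor shedding and trafficking were above 0, and 2 of them, Cblb and Rhbdf1, did not overlap. Of the other receptors and ligands, 6 of 7 were tested, 3 were above 0 and 1, Hbegf, did not overlap. Erbb4, the remaining receptor of the family, was 0.62 to 9.18 CPM in the samples, and Epgn, with 37 UMIs in all, was not tested.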

How the data were processed

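Nuclei of frozen organoids were profiled with 10x 3′ v3.1 chemistry. The counts deposited by the authors are UMIs per gene and nucleus. Per the methods, reads were aligned to mm10 with Ensembl 98 annotation (the submitters' processing notes name Cell Ranger 2.1.1), and nuclei beyond 3 MAD (spelled out there as mean absolute deviation) in mitochondrial share, reads or features were removed. The authors also deposited the cluster numbers (Leiden, after Harmony) and a matrix of log values, which was not used. Symbols from GENCODE M21 matched 31244 of 31319 genes.

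UMIs were summed per sample, and per sample and cluster where a sample had at least 10 nuclei. Sums were tested with edgeR 4.0.16 (quasi-likelihood, TMM, default expression filter; R 4.3.3, limma 3.58.1) with Benjamini-Hochberg adjustment over all genes, or over all genes and clusters together, at a threshold of 0.05. DESeq2 1.42.0 was an alternative. Levels are CPM, and ratios are log2 of SCM over QCM. The procedure was tested on simulated data. Python 3.11.15 was used for sums, shares and figures. No doublet caller was run, and leaving out the 6% of nuclei with the most UMIs per sample was an alternative. Limits from counts of 0 use 3 counts and cover counting error only.

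Named were the 9 members, the 6 pathway genes with the smallest p, the 3 genes most like each member over clusters, and the cluster with the smallest p of each member. Cluster 7 for Areg and Egfr, cluster 9 for Nrg1, and the pathway genes whose ranges did not overlap were added after their values were seen, and so were Erbb4, the remaining receptor, and Epgn, which was not tested. The members, the gene lists and the markers were chosen with earlier results of these data known. Leaving out the shared barcodes, and clusters 9 and 10, were alternatives chosen after seeing the data.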

Additional observations from a re-analysis of the deposited data

How the results depend on the processing

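No member was called by edgeR over all nuclei under any alternative run. Within clusters 1 was called with a replicate block, against 0 without it: Nrg1 in cluster 9, at a log2 ratio of 1.62 (edgeR adjusted p = 1.9e-07). SCM replicate 1 had too few nuclei for that fit and QCM replicate 1 was alone in its block, so this ratio rests on replicates 2 and 3. In SCM, most of the Nrg1 UMIs behind it lay in few nuclei. The deviations of samples with the same number correlated at 0.364, 0.456 and -0.0851 for replicates 1, 2 and 3, and those with unlike numbers at -0.460 to 0.163. Numbers 1 and 2 went together more than unlike numbers did, and number 3 did not. The labels name no shared mouse or culture, so the numbers were not taken to pair the samples. Of 550 alternatives compared, 514 left direction and call as they were and 34 turned the direction, and 15 of 27 log2 ratios never turned. Adding the share of ribosomal protein UMIs as a covariate gave -0.00843 for Egfr, 0.166 for Erbb3, 0.30 for Areg, -0.352 for Ereg and 0.039 for Hras over all nuclei and -0.126 for Egfr in cluster 7. With library size alone they were 0.00247 for Erbb2, 0.00313 for Erbb3 and 0.159 for Areg. In replicates 2 and 3 alone they were 0.0265 for Erbb2, 0.352 for Areg and -0.0167 for Egf. With clusters weighted equally, in a limma fit without TMM, they were 0.061 for Erbb2 and -0.493 for Ereg. Ereg over all nuclei was -0.113 with the replicate block and -0.281 without the deepest nuclei. With voom, Areg was 0.039 over all nuclei and Ereg 0.264 in cluster 7. With the shared barcodes left out, Areg was 0.0271 over all nuclei and Ereg 0.00132 in cluster 7, where it was 0.0197 with at least 30 nuclei per sample. Leaving out 1 sample at a time, the ranges were -0.327 to 0.0465 for Erbb2, -0.34 to 0.0641 for Erbb3, -0.131 to 0.435 for Errfi1, -0.143 to 0.195 for Areg, -0.524 to 0.712 for Ereg, -0.605 to 0.758 for Ereg in cluster 7, -0.157 to 0.604 for Egf in cluster 1 and -0.0958 to 1.58 for Nrg1 in cluster 9 (over all nuclei where no cluster is named). The cause of these turns was not tested. Genes called by edgeR over all nuclei numbered 0 under every alternative, against 21 with DESeq2, and genes at an unadjusted p under 0.05 ranged from 135 to 2341 around 866. Within clusters the calls numbered 8 with DESeq2, 2984 with no filter on low counts, 110 with the replicate block and 1 without QCM replicate 1, against 0, and tests at an unadjusted p under 0.05 ranged from 1488 to 19293 around 7490. With library size alone the median log2 ratio of all genes was 0.14, against -0.01. Ereg and Egf, with 363 and 732 UMIs in all, were the members with the fewest UMIs.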
